A study of Homo sapiens with 4 samples.

Results

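miR-146a, miR-146b-5p and miR-155 are 3 of the 1212 human miRNAs probed on the arrays, taken by exact name and without the star forms of their hairpins. They were selected on the values of these same samples, as NF-kB-linked miRNAs that were bright in the HepG2-Bcl-2 line alone, so their high level in that line is the basis of their choice and is given as a description with no test. HepG2 is an established human liver cancer cell line. Total RNA was measured from 4 HepG2 lines: HepG2-Twist1/Bcl-2, co-transfected with pcDNA plasmids for Twist1 and Bcl-2, HepG2-Bcl-2, transfected with pcDNA-Bcl-2, HepG2-Twist1, transfected with pcDNA-Twist1, and HepG2-vector, the control. The lines with a transgene are said to express it stably, the number of clones behind each line is not given in the sources used here, and the construct of HepG2-vector is labelled as none although its name speaks of a vector. Twist1 is a transcription factor that drives epithelial-mesenchymal transition, and Bcl-2 is a mitochondrial protein that restrains apoptosis. HepG2-Twist1/Bcl-2 (Cy3) shared the second array with HepG2-Bcl-2 (Cy5), and HepG2-Twist1 (Cy5) shared the first array with HepG2-vector (Cy3). Each line had 1 sample and each miRNA 3 repeat spots, so every SD below is the spread of the spots of 1 hybridization, and no test between lines was possible. The dyes were not swapped, so line and dye cannot be told apart within an array, and a difference between lines that differ in Bcl-2 cannot be told apart from a difference between the arrays.

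NF-kB is the transcription factor family through which cells answer inflammatory cytokines, microbial products and many forms of stress. In monocytes and macrophages it switches on miR-146a, which represses the signalling proteins IRAK1 and TRAF6 that lie upstream of NF-kB, an arrangement of negative feedback. miR-146b-5p is the product of a separate gene with a near-identical mature strand. miR-155 is cut from the transcript of MIR155HG (also known as BIC), is induced by NF-kB and AP-1 in activated lymphocytes and macrophages, and represses the negative regulators SOCS1 and SHIP1. Both families are best known from immune cells, and both have been studied in liver inflammation and in many tumours.

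The 3 targets are shown as the arrays list them, 5′ to 3′, because the likeness of the miR-146 pair bears on how its probes can be read. The capitals mark the seed, bases 2 to 8, which directs a miRNA to its messenger RNAs.
miR-146a: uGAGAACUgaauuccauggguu
miR-146b-5p: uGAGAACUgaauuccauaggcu
miR-155: uUAAUGCUaaucgugauaggggu
The miR-146 pair shared its seed with each other and with no further target of the arrays, whereas the seed of miR-155 was shared with none. Over the 22 bases of the miR-146 targets 2 differed, G18A and U21C, with positions counted from 1 at the 5′ end and the base of miR-146a given first. Probes complementary to such targets are nearly alike, and how much signal of one miRNA the probe of the other caught was not tested. miR-155 shared at most 9 bases with miR-146a and 10 with miR-146b-5p in the ungapped alignments tried, which left out the largest shifts. The target of miR-146a was identical to the mature strand in RefSeq (GRCh38.p14), while those of miR-146b-5p and miR-155 lacked 1 base at the 3′ end. The mature strands lie on the plus strand of GRCh38.p14 at chr5:160485372-160485393 (MIR146A), chr10:102436520-102436542 (MIR146B) and chr21:25573983-25574006 (MIR155). MIR146A lies within the long non-coding RNA gene MIR3142HG and MIR155 within the long non-coding RNA gene MIR155HG, and RefSeq lists no host gene for MIR146B.

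All 3 miRNAs were bright in HepG2-Bcl-2 and near the empty spots in the other lines. The repeat spots of miR-146a read 128.62, 117.8 and 103.17 in HepG2-Twist1/Bcl-2, against 6382.07, 6475.67 and 7200.68 in HepG2-Bcl-2, 38.63, 37.87 and 36.96 in HepG2-Twist1, and 102.15, 106.99 and 100.47 in HepG2-vector, as scanned and before any correction. Those of miR-146b-5p read 123.51, 122.31 and 103.72 in HepG2-Twist1/Bcl-2, against 283.71, 256.3 and 214.12 in HepG2-Bcl-2, 41.72, 39.89 and 39.29 in HepG2-Twist1, and 117.53, 105.75 and 107.9 in HepG2-vector. For miR-155 the readings were 166.81, 149.82 and 134.65 in HepG2-Twist1/Bcl-2, against 191.55, 213.42 and 188.11 in HepG2-Bcl-2, 38.75, 38.87 and 38.16 in HepG2-Twist1, and 104.22, 111.29 and 114.47 in HepG2-vector. The channels differ in their background, so each reading has to be set against the 20 empty spots of its own channel, which ranged between 147.16 and 173.94 in HepG2-Twist1/Bcl-2, between 44.37 and 56.84 in HepG2-Bcl-2, 35.64 and 41.33 in HepG2-Twist1, and 94.16 and 114.5 in HepG2-vector. None of the 9 spots in HepG2-Twist1/Bcl-2 read above all of the empty spots, against 9 of 9 in HepG2-Bcl-2, 1 in HepG2-Twist1 and 1 in HepG2-vector, the last 2 both spots of miR-146b-5p. Within HepG2-Bcl-2 the mean of the 3 spots was 129 times the median empty spot for miR-146a, 4.86 times for miR-146b-5p and 3.82 times for miR-155. Each of the 3 probes thus stood clear of the background of its channel in this line alone, whether fewer cells carried a miRNA in the other lines or each cell held less of it, which cannot be told apart in bulk RNA.

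**Figure D1:**
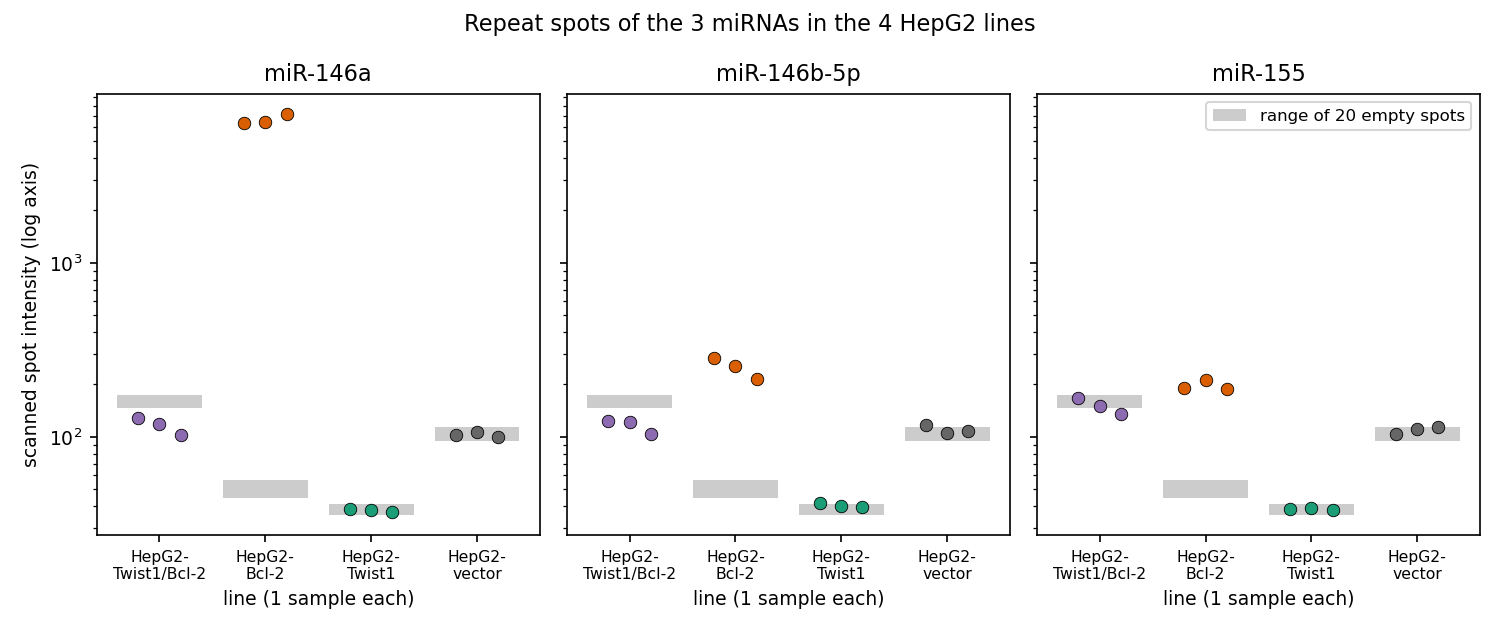
Scanned intensity (log axis) of the 3 repeat spots of miR-146a, miR-146b-5p and miR-155 in the 4 HepG2 lines, 1 sample each, with the range of the 20 empty spots of each channel as a grey band. All 9 spots in HepG2-Bcl-2 lie above their band, against 0 of 9 in HepG2-Twist1/Bcl-2 and 1 of 9 each in HepG2-Twist1 and HepG2-vector.

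In HepG2-Twist1/Bcl-2, all 6 spots of the miR-146 pair read below the lowest empty spot, as did 1 spot of miR-155. Such readings were common in that channel, where 1797 of 3636 miRNA spots (49.4%) lay below the lowest empty spot. In HepG2-Bcl-2 the 8 neighbours of each spot of the 3 miRNAs had medians between 47.58 and 55.12. Single neighbours were bright, with the brightest at 1953.3, 2067.56 and 2299.37 beside the spots of miR-146a, 75.1, 70.26 and 73.02 beside those of miR-146b-5p, and 583.68, 708.77 and 502.59 beside those of miR-155. Each spot of miR-155 thus had a neighbour brighter than itself, and whether signal spread between spots was not tested. The spot next to miR-146a holds miR-146a*, and it read 48.81, 48.43 and 46.47 in the 3 repeats, all within the range of the empty spots. The 3 repeats of a miRNA lie in different parts of the array and gave similar readings. The next row held the same miRNA in each repeat, and a bright neighbour recurred beside miR-146a and miR-155. The likeness of the repeats therefore cannot show whether signal spread between spots.

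After background correction and normalization between the arrays, the level of miR-146a in HepG2-Bcl-2 was a normalized intensity of 8167 ± 452 (SD of 3 spots). miR-146b-5p had a level of 274 ± 41.0 and miR-155 of 207 ± 16.3 in the same line. In HepG2-Twist1/Bcl-2, HepG2-Twist1 and HepG2-vector every level of the 3 miRNAs lay below 32, the threshold in the methods of the study, under this normalization, with the highest at 23.7 for miR-146b-5p in HepG2-Twist1. HepG2-Bcl-2 therefore comes first in the order of the lines for each of the 3 miRNAs, and the other 3 lines have no order, because levels under the threshold cannot be ranked. The normalized intensities of the authors showed the same picture. They were 8762.87 for miR-146a, 283.11 for miR-146b-5p and 191.81 for miR-155 in HepG2-Bcl-2, and between 1.76 and 14.5 for the 3 miRNAs in the other lines. Their medians over all 1212 miRNAs were between 12.1 and 12.7 in the 4 lines.

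The second array sets HepG2-Twist1/Bcl-2 beside HepG2-Bcl-2 under different dyes, and this comparison asks what differs with Twist1 where Bcl-2 is present. All 3 miRNAs were lower in HepG2-Twist1/Bcl-2. The log2 ratio of miR-146a was -7.65 ± 0.38, with single spots at -7.32, -7.56 and -8.06, and its level was at least 295-fold lower when the dim side was set to 32. That of miR-146b-5p was -2.92 ± 0.07 (spots -2.96, -2.84 and -2.95), at least 9.91-fold lower. miR-155 was at -2.04 ± 0.23 (spots -1.78, -2.14 and -2.19), at least 7.71-fold lower. These bounds come from levels normalized within the array, which were 9430 for miR-146a, 317 for miR-146b-5p and 247 for miR-155 in HepG2-Bcl-2. The ratios hold an offset of 50 on both sides, which draws those of dim miRNAs toward 0, and the bounds hold for this normalization only. For miR-155 the bound on the authors' values was 5.99-fold, and without normalization its level was 50.9 in HepG2-Twist1/Bcl-2 against 163 in HepG2-Bcl-2, so that both sides passed 32. A miRNA was called when its ratio was 2-fold or more and its 3 spots had the same sign, and at least 1 line reached 32. By this rule 29 of 592 measured miRNAs (4.90%) were called lower, with a median log2 ratio of -0.04 over all 592. All 3 miRNAs were among them, as their selection already required.

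The comparison of HepG2-Bcl-2 with HepG2-vector runs across the arrays and across the dyes. It shares HepG2-Bcl-2 with the comparison above, so its values are not a second observation of the same difference. The log2 ratio of miR-146a was 6.96 ± 0.13, at least 255-fold higher in HepG2-Bcl-2. miR-146b-5p was at 2.18 ± 0.14, at least 8.57-fold higher, and miR-155 at 1.85 ± 0.11, at least 6.47-fold higher. Of 484 measured miRNAs, 15 (3.10%) were called higher in HepG2-Bcl-2, the 3 miRNAs among them, and the median of all 484 was -0.02. HepG2-Twist1 carried the same dye as HepG2-Bcl-2, Cy5, and its spots of the 3 miRNAs read between 36.96 and 41.72, close to or within the range of its empty spots. It lay on the other array, so line, dye and array cannot be told apart by these readings.

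**Figure D2:**
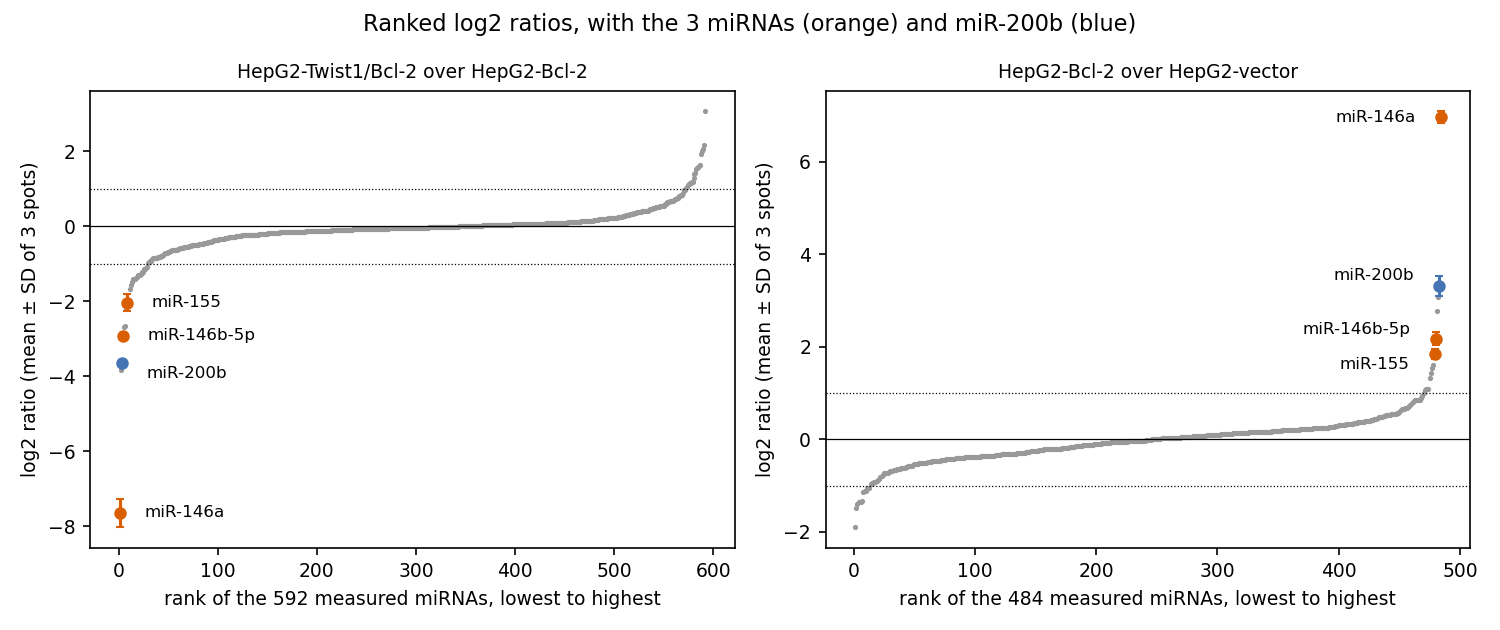
Log2 ratios of all measured miRNAs in order of size, for HepG2-Twist1/Bcl-2 over HepG2-Bcl-2 (592 miRNAs) and HepG2-Bcl-2 over HepG2-vector (484 miRNAs), with the mean ± SD of 3 spots for miR-146a, miR-146b-5p and miR-155 (orange) and miR-200b (blue) and dotted lines at a log2 ratio of 1 in size. miR-146a is drawn at -7.65 and 6.96, miR-146b-5p at -2.92 and 2.18, and miR-155 at -2.04 and 1.85, with the dim side of each below 32.

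Neither of the comparisons without HepG2-Bcl-2 could measure the 3 miRNAs, since all were below 32 on both sides. In HepG2-Twist1 over HepG2-vector, 0 of the 3 were measured, where 5 of 304 measured miRNAs (1.64%) were called. In HepG2-Twist1/Bcl-2 over HepG2-Twist1, 0 of the 3 were measured as well, where 61 of 454 (13.4%) were called. Any difference in these miRNAs between such lines was not detectable at this signal over background. With cyclic loess in place of the main normalization all 3 passed 32 in HepG2-Twist1, where miR-146a was at 44.6, and miR-146a was then called lower in HepG2-Twist1/Bcl-2 than in HepG2-Twist1, at a log2 ratio of -1.11. The scanned spots of miR-146a lay within the range of the empty spots in HepG2-Twist1 and below it in HepG2-Twist1/Bcl-2. Neither side of this call thus stood above background. Without normalization miR-155 passed 32 in HepG2-Twist1/Bcl-2, at 50.9, with an uncalled log2 ratio of 0.83 over HepG2-Twist1.

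The hairpins of the 3 miRNAs each yield a second strand, which is usually the less stable one. miR-146a*, miR-146b-3p and miR-155* were below 32 in all 4 lines. In HepG2-Bcl-2 the spots of miR-146a* read 48.81, 48.43 and 46.47, those of miR-146b-3p 50.89, 48.68 and 49.55, and those of miR-155* 45.68, 55.03 and 45.59. All 9 readings lay inside the range of the empty spots, so the brightness of the miR-146a hairpin was seen at its 5′ strand alone. miR-3142, named here after its values were seen because it lies in the same host gene as MIR146A, was also below 32 in all lines and read 47.24, 44.97 and 44.06 in HepG2-Bcl-2.

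The starts of the 2 host genes are shown because the miRNAs cut from their transcripts were high in the same line. The sequences are those of RefSeq (GRCh38.p14) and run on the plus strand through 250 bases before and 50 bases from the annotated start, at chr5:160468001-160468300 for MIR3142HG and chr21:25561895-25562194 for MIR155HG. Capitals mark a match to the NF-kB consensus in the start of MIR3142HG and to the AP-1 consensus in that of MIR155HG.
MIR3142HG: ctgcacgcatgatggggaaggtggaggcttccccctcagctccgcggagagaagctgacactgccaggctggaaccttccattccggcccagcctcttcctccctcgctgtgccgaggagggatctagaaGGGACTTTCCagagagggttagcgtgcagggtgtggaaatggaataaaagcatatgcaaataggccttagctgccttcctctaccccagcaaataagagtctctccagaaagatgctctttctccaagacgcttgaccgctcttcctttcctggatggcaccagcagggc
MIR155HG: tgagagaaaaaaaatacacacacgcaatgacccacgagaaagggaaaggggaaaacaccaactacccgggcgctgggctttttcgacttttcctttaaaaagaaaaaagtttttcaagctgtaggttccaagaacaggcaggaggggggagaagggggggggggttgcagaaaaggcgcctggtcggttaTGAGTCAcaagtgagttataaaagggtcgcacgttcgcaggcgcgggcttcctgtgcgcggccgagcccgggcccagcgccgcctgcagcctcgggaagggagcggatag
Both strands were searched for the NF-kB consensus and for the AP-1 motif, TGACTCA or TGAGTCA, which are the same site read on either strand. The start of MIR3142HG held 1 NF-kB match, GGGACTTTCC, 120 bases upstream of the annotated start, and no AP-1 match. That of MIR155HG held 1 AP-1 match 60 bases upstream and no NF-kB match. Among 35116 RefSeq promoter windows of the same length, 5.91% held the NF-kB consensus and 4.95% the AP-1 motif. A match describes the letters of a window and is not a measured binding site, and binding of neither factor was measured here.

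A level of at least 100 in HepG2-Bcl-2 with all other lines below 32 was found for 4 miRNAs, miR-146a, miR-146b-5p, miR-155 and miR-200b, both in the scanner values and in the normalized intensities of the authors. The corresponding count was 0 for HepG2-Twist1/Bcl-2, 0 for HepG2-Twist1 and 0 for HepG2-vector. All of the 4 but miR-200b had been selected as bright in HepG2-Bcl-2 alone, so their part in the count follows from that selection. On the inner side of this limit stood miR-155 at 207, and on the outer side miR-1233 at 75.5 and miR-200a at 69.8. With a limit of 32 in HepG2-Bcl-2, 54 miRNAs met it in the scanner values and 30 in those of the authors. The other lines were not counted at this limit.

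miR-200b was also the miRNA with the pattern most similar to the mean of the 3. Likeness was measured over the 4 lines as the root mean square difference of centred log2 levels, among 523 other miRNAs that reached 32 in at least 1 line. Before the logarithm, negative levels were floored and an offset of 50 was added, which shrinks differences among dim miRNAs. The levels were not scaled, so the measure weighs the size of a difference as well as its direction. The mean lies between miR-146a and the dimmer miR-146b-5p and miR-155, so it need not match any of them in size. miR-200a, below 32 in all lines but HepG2-Bcl-2, where it was at 69.8, was not among the 8 most similar. miR-200b, a member of the family that holds epithelial cells in their state by repressing ZEB1 and ZEB2, differed by 0.153. Its spots read 147.46, 140.59 and 114.87 in HepG2-Twist1/Bcl-2, against 589.53, 548.09 and 403.57 in HepG2-Bcl-2, 38.8, 36.88 and 36.49 in HepG2-Twist1, and 105.23, 108.94 and 93.63 in HepG2-vector. In HepG2-Bcl-2 alone the readings passed the empty spots. The log2 ratio was -3.65 ± 0.01 in HepG2-Twist1/Bcl-2 over HepG2-Bcl-2 and 3.32 ± 0.22 in HepG2-Bcl-2 over HepG2-vector.

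The next in likeness were not confined to HepG2-Bcl-2. miR-424, which belongs to the miR-15/16 family of cell cycle regulators, differed by 0.374 and had levels of 13.3 in HepG2-Twist1/Bcl-2, 846 in HepG2-Bcl-2, 71.1 in HepG2-Twist1 and 81.5 in HepG2-vector. miR-29a and miR-29c, which repress collagens and other matrix genes, differed by 0.877 and 1.02. The level of miR-29a was 1829 in HepG2-Twist1/Bcl-2, 11972 in HepG2-Bcl-2, 4252 in HepG2-Twist1 and 4071 in HepG2-vector, and that of miR-29c was 16.6, 369, 125 and 148 in the same order. miR-424, miR-29a and miR-29c were called lower in HepG2-Twist1/Bcl-2 than in HepG2-Bcl-2 under all 10 alternative settings. They were also called higher in HepG2-Bcl-2 than in HepG2-vector, where miR-29a lost its call under 1 alternative and miR-29c, at 1.08 ± 0.52, under 2. miR-1181, miR-4258, miR-21 and miR-1224-5p followed, at differences between 1.12 and 1.21. The last of them rests on uneven spots, with readings of 69.91, 78.34 and 964.68 in HepG2-Bcl-2.

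**Figure D3:**
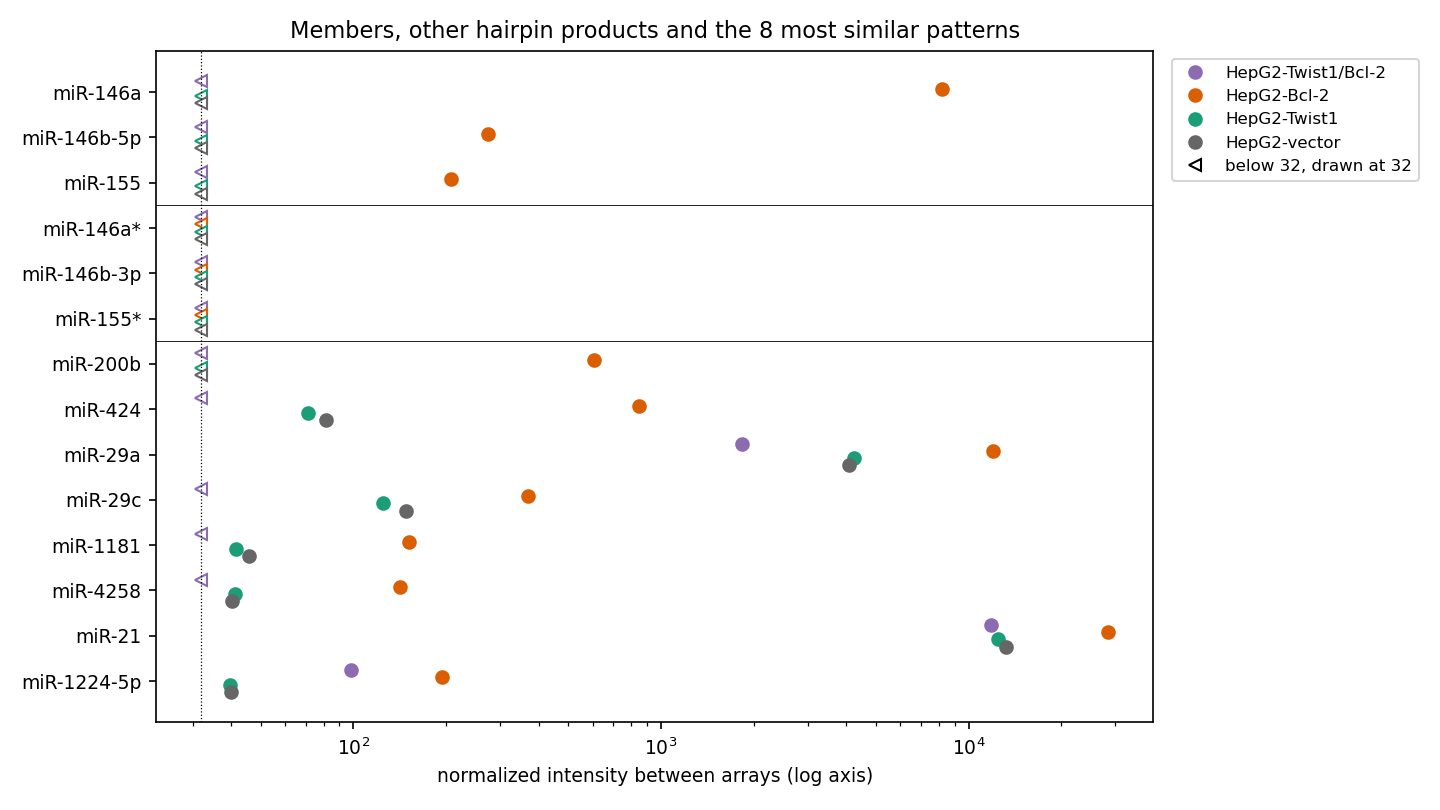
Normalized intensity between arrays (log axis) in the 4 HepG2 lines, 1 sample each, for the 3 miRNAs, the other strands of their hairpins and the 8 miRNAs with the most similar pattern, with open triangles at 32 for levels below 32. miR-146a at 8167, miR-146b-5p at 274, miR-155 at 207 and miR-200b at 606 show a filled point in HepG2-Bcl-2 only, and the other hairpin strands show none.

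The 17 other miRNAs of a list linked to NF-kB or inflammation, where measured, had ratios nearer to 0 in both comparisons that include HepG2-Bcl-2. The 3 miRNAs had been selected for their brightness in that line, so this contrast follows from the selection. In HepG2-Twist1/Bcl-2 over HepG2-Bcl-2, 13 of them were measured, 1 was called lower and 2 were called higher, where 4.90% of all 592 measured miRNAs were called lower and 3.55% higher. The median log2 ratio of the 13 was -0.07, beside -0.04 over all. In HepG2-Bcl-2 over HepG2-vector, 14 were measured, 0 were called lower and 2 higher, where 2.69% of all 484 were called lower and 3.10% higher, with a median of 0.25 beside -0.02 over all. In HepG2-Twist1 over HepG2-vector, 0 of 13 were called, where 1.64% of all 304 were, with a median of -0.12 beside -0.02. In HepG2-Twist1/Bcl-2 over HepG2-Twist1, 2 of 14 were called higher and 0 lower, where 6.39% of all 454 were called higher, with a median of 0.34 beside -0.14.

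miR-21, a widely studied tumour-promoting miRNA under control of STAT3 and AP-1, was the one called lower in the first comparison. It had a level of 11810 in HepG2-Twist1/Bcl-2, 28387 in HepG2-Bcl-2, 12448 in HepG2-Twist1 and 13240 in HepG2-vector, the same line being highest as for the 3 miRNAs. Its log2 ratio was -1.26 ± 0.30 in HepG2-Twist1/Bcl-2 over HepG2-Bcl-2 and 1.10 ± 0.10 in HepG2-Bcl-2 over HepG2-vector. Without normalization it was called in neither, and in the comparison across arrays it was called under 6 of 10 alternative settings. let-7e, of the growth-restraining let-7 family with its near-identical members, was instead highest with both transgenes, at 13694 in HepG2-Twist1/Bcl-2, 5991 in HepG2-Bcl-2, 3156 in HepG2-Twist1 and 3604 in HepG2-vector. Its log2 ratio was 1.19 ± 0.08 over HepG2-Bcl-2 and 2.10 ± 0.11 over HepG2-Twist1, and it was called in both under every alternative setting.

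miR-31 was called higher in HepG2-Twist1/Bcl-2 than in HepG2-Bcl-2 at 1.03 ± 0.23, with levels of 3351 and 1620, and the call was lost under 4 of 10 alternative settings. miR-125b lay at the limit, with 1.00 ± 0.10 in HepG2-Bcl-2 over HepG2-vector and levels of 4095 and 2018, and was likewise lost under 4 of 10. miR-221, a repressor of the cell cycle inhibitor p27, was called higher in HepG2-Twist1/Bcl-2 than in HepG2-Twist1 at 1.15 ± 0.28. Its neighbour miR-222 was called in none of the comparisons, with log2 ratios between -0.15 and 0.47.

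**Figure D4:**
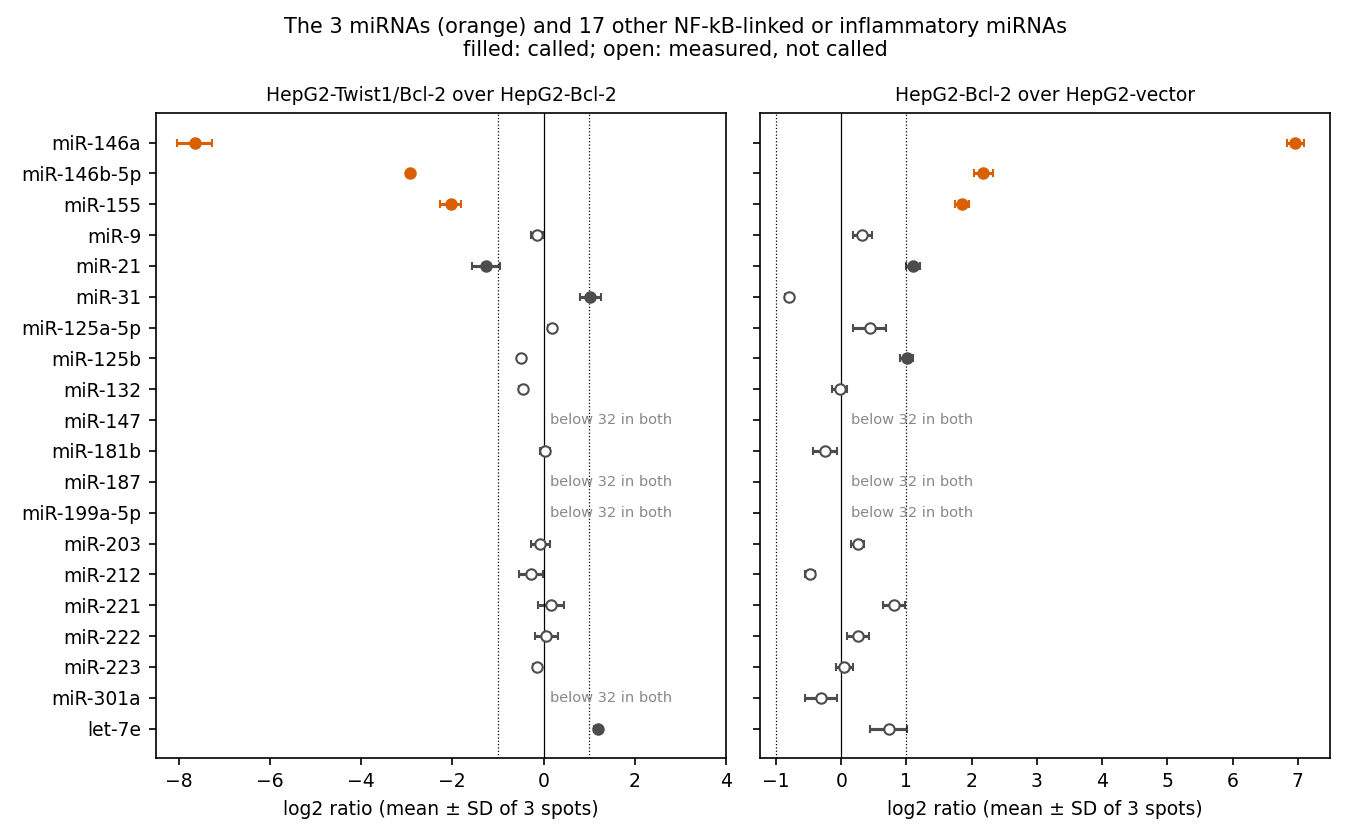
Log2 ratios (mean ± SD of 3 spots) of the 3 miRNAs (orange) and the 17 other NF-kB-linked or inflammatory miRNAs (grey) in HepG2-Twist1/Bcl-2 over HepG2-Bcl-2 and HepG2-Bcl-2 over HepG2-vector, with filled points for called miRNAs and open points for those measured but not called. The 3 miRNAs lie between -7.65 and -2.04 in the first comparison, against -1.26 to 1.19 for the rest of the list. The 3 were selected for their level in HepG2-Bcl-2, so the contrast with the rest follows from that selection.

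miR-146a and miR-155 are abundant in blood cells, so the miRNAs of other cell types were read beside them, although their part in the result was not tested. Of 8 blood cell miRNAs, 2 reached 32 in HepG2-Twist1/Bcl-2, 4 in HepG2-Bcl-2, 3 in HepG2-Twist1 and 3 in HepG2-vector, and their summed levels were 413, 459, 354 and 328 in the same order. On the authors' values 2 of the 8 reached 32 in every line. miR-142-3p, miR-142-5p, miR-144 and miR-451, which define leukocytes and red cells, were below 32 in all 4 lines, and the spots of miR-142-3p in HepG2-Bcl-2 read 47.71, 49.35 and 45.01. The other 4 of the list all reached 32 in HepG2-Bcl-2 under the main normalization, miR-150 at 33.5, miR-223 at 34.998, miR-342-3p at 246 and miR-486-5p at 66.0. On the authors' values miR-150 was at 18.81 and miR-223 at 20.74 in that line. In HepG2-Bcl-2 over HepG2-vector their log2 ratios were 0.20 for miR-150, 0.05 for miR-223, 0.54 for miR-342-3p and 0.03 for miR-486-5p. miR-223 stands both in this list and in the inflammatory one. No blood cell miRNA was called in either comparison that includes HepG2-Bcl-2, where 4 of the 8 were measured in each. Over all measured miRNAs, 4.90% were called lower and 3.55% higher in HepG2-Twist1/Bcl-2 over HepG2-Bcl-2. In HepG2-Bcl-2 over HepG2-vector the shares were 2.69% lower and 3.10% higher. With so few measured, the absence of calls says little about this list.

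The summed level of the epithelial miRNAs was highest in the same line as the 3 miRNAs, as were those of the blood cell, endothelial and fibroblast lists. These sums include levels below 32, which cannot be ranked, so small differences between sums give no order of the lines. On the authors' values the blood cell sums were 337 in HepG2-Bcl-2 and 320 in HepG2-Twist1/Bcl-2, and the fibroblast sums 129 and 119. Of all 1212 miRNAs, 309 reached 32 in HepG2-Twist1/Bcl-2, 390 in HepG2-Bcl-2, 398 in HepG2-Twist1 and 390 in HepG2-vector. On the authors' values 219, 254, 253 and 259 did. Of 5 members of the miR-200 family, 0 reached 32 in HepG2-Twist1/Bcl-2, 4 in HepG2-Bcl-2, 1 in HepG2-Twist1 and 1 in HepG2-vector. On the authors' values these counts were 0, 3, 0 and 0. Their summed level was 89.5 in HepG2-Twist1/Bcl-2, 789 in HepG2-Bcl-2, 116 in HepG2-Twist1 and 108 in HepG2-vector. miR-200b made up most of it in HepG2-Bcl-2, while miR-141 was below 32 in every line. In HepG2-Twist1/Bcl-2 over HepG2-Bcl-2, miR-200b was the 1 of 4 measured members called lower, where 4.90% of all measured miRNAs were. In HepG2-Bcl-2 over HepG2-vector it was the 1 of 4 called higher, where 3.10% of all were. Of 7 fibroblast and mesenchymal miRNAs, 1 reached 32 in HepG2-Twist1/Bcl-2, 3 in HepG2-Bcl-2, 1 in HepG2-Twist1 and 1 in HepG2-vector. On the authors' values these counts were 1, 1, 0 and 0. Their summed levels were 190 in HepG2-Twist1/Bcl-2, 238 in HepG2-Bcl-2, 166 in HepG2-Twist1 and 164 in HepG2-vector. None was called in any comparison, but few were measured. These were 4 in HepG2-Twist1/Bcl-2 over HepG2-Bcl-2 and 3 in HepG2-Bcl-2 over HepG2-vector. In HepG2-Twist1 over HepG2-vector 0 were measured, and in HepG2-Twist1/Bcl-2 over HepG2-Twist1 1 was. Over all measured miRNAs, 4.90% were called lower and 3.55% higher in HepG2-Twist1/Bcl-2 over HepG2-Bcl-2. The shares were 2.69% and 3.10% in HepG2-Bcl-2 over HepG2-vector, and 13.4% in either direction in HepG2-Twist1/Bcl-2 over HepG2-Twist1. The absence of calls among so few therefore says little about the fibroblast list. Of the endothelial pair, miR-126 was called lower in HepG2-Twist1/Bcl-2 than in HepG2-Bcl-2 at -1.11 ± 0.08, a call lost with cyclic loess and without normalization. The summed levels of the pair were 113 in HepG2-Twist1/Bcl-2, 272 in HepG2-Bcl-2, 162 in HepG2-Twist1 and 189 in HepG2-vector. Of 5 hepatocyte miRNAs, 2 or 3 reached 32 in each line. Their summed level was 331 in HepG2-Twist1/Bcl-2, 618 in HepG2-Bcl-2, 630 in HepG2-Twist1 and 631 in HepG2-vector. The lower sum in HepG2-Twist1/Bcl-2 came mostly from miR-192, at 134 against 399 in HepG2-Bcl-2. Of the 3 measured in that comparison 1 was called, where 4.90% of all measured miRNAs were called lower. The other log2 ratios were -0.04 for miR-194 and -0.17 for miR-215. miR-192 of this list was called lower in HepG2-Twist1/Bcl-2, at -1.29 ± 0.47 over HepG2-Bcl-2 and -1.38 ± 0.24 over HepG2-Twist1, and both calls were lost without normalization, where its ratio over HepG2-Twist1 was 0.12. miR-122, the defining miRNA of hepatocytes, was below 32 in all lines.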

How the data were processed

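The authors extracted total RNA from each line, hybridized 2 labelled samples to each µParaflo array (LC Sciences) and scanned the spots. They deposited spot values of both channels, which have no background column, and a table of normalized intensity values made with cyclic LOWESS. Their methods set a filter at 32, and the table also holds values under it. The deposited spot values, which are linear intensities with commas in large values, were corrected per channel by normexp in limma with an offset of 50. Loess (span 0.3, 4 iterations, control spots at weight 0) then normalized each array on its own. Levels across arrays also used quantile normalization of the average log intensity. Levels were means of the log2 values of 3 spots, returned to the linear scale less the offset. The authors' intensity values were an alternative. R 4.3.3, limma 3.58.1 and Python 3.11.15 were used, and the scripts were tested on simulated data.

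The miRNAs described, the lists and the tests were chosen with earlier results of these data known. Named miRNAs were the 3 selected ones, the other strands of their hairpins, the 8 most similar patterns, and of the NF-kB list the 6 brightest and all called. Precision is limited by the 2 arrays and by probes that mostly lay near background.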

Additional observations from a re-analysis of the deposited data

How the results depend on the processing

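All 3 miRNAs were called in HepG2-Twist1/Bcl-2 over HepG2-Bcl-2 and in HepG2-Bcl-2 over HepG2-vector under every alternative tried. The 3 were selected on these same values for their brightness in HepG2-Bcl-2, so these calls follow from the selection. The alternatives show only how far the size of each ratio depends on the processing. Of 54 alternative values of their log2 ratios, 33 moved by less than the SD of the repeat spots, 21 moved by more and 0 reversed. In HepG2-Twist1/Bcl-2 over HepG2-Bcl-2, miR-146a was at -6.99 with intensities as scanned, -6.64 without normalization and -8.10 on the deposited values. miR-146b-5p was at -2.82 with the median empty spot subtracted, -2.56 as scanned, -2.79 with cyclic loess, -1.98 without normalization and -3.15 on the deposited values, and miR-155 at -2.40 with the empty spot subtracted, -1.08 without normalization and -2.58 on the deposited values. In HepG2-Bcl-2 over HepG2-vector, miR-146a was at 7.23 with the empty spot subtracted, 7.28 with cyclic loess, 6.48 without normalization and 8.10 on the deposited values. miR-146b-5p was at 2.41, 1.69 and 3.15, and miR-155 at 2.07, 1.38 and 2.58, with the empty spot subtracted, without normalization and on the deposited values. Deposited values below 32 were set to 32, so that their ratios share the dim side.

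Of 40 alternative counts of called miRNAs, 35 stayed within 1.5 times. Without normalization the median of all miRNAs shifted to 0.59 in HepG2-Twist1/Bcl-2 over HepG2-Bcl-2, with 10 called lower and 107 higher (29 and 21 with it), and to -0.51 in HepG2-Bcl-2 over HepG2-vector, with 6 called higher and 81 lower (15 and 13 with it). It shifted to -0.63 in HepG2-Twist1 over HepG2-vector, with 131 called, all lower (5 with it), and to 0.78 in HepG2-Twist1/Bcl-2 over HepG2-Twist1, with 196 called, 193 of them higher (61 with it, 29 higher). The deposited values gave 9 calls in HepG2-Twist1 over HepG2-vector. With cyclic loess the 3 miRNAs passed 32 in HepG2-Twist1, at 44.6, 38.8 and 38.0, and miR-146a was called lower in HepG2-Twist1/Bcl-2 than in HepG2-Twist1 at -1.11. The scanned spots of miR-146a did not stand above the empty spots in either of these lines. Without normalization miR-155 reached 50.9 in HepG2-Twist1/Bcl-2, with a log2 ratio of 0.83 over HepG2-Twist1, and miR-146b-5p reached 32.1 in HepG2-vector. With no background correction all levels passed 32. On the second array they were then 78.0 with both transgenes and 9930 with Bcl-2 alone for miR-146a, 70.2 and 413 for miR-146b-5p, and 90.7 and 326 for miR-155. No paired analysis was possible because each line had 1 sample.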
